A study of Homo sapiens with 16 samples.

Results

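The genes described here are YAP1 and WWTR1, the 4 TEAD transcription factors and 4 of their widely used target genes, CCN1, CCN2, AMOTL2 and ANKRD1. They were chosen by gene symbol, with earlier results of these data known, and make up 10 of the 35993 genes in the deposited count table. All 10 passed the filter on low counts, which kept 21297 genes, and the lowest count of any of them in any library was 12. RNA was sequenced from the human bladder cancer (BC) cell lines 253J, J82, RT112 and TCCSUP after 48 h with CM-1758, an inhibitor of histone deacetylases (HDACs), or with DMSO. The treated cells of a line received CM-1758 at the inhibitory concentration (IC50) measured for that line, so the dose differed between lines, and the control cells received 0.01% DMSO as vehicle. Each of the 8 groups of cell line and treatment held 2 libraries, 16 in all. The labels give the genotype of every line as wild type, and the cells of all groups were maintained with serum. The 253J, J82 and RT112 cells grew in DMEM and the TCCSUP cells in EMEM, so medium and line cannot be told apart for TCCSUP. Each line is a single established culture. The study's methods describe the pair of libraries in a group as biological replicates from separate experiments.

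YAP1 and WWTR1 encode YAP and TAZ, paralogous coactivators that do not bind DNA themselves and reach their target genes through the TEAD proteins. In the Hippo pathway the kinases STK3 and STK4, with SAV1, activate LATS1 and LATS2, with MOB1A and MOB1B, and the LATS kinases phosphorylate YAP and TAZ, which are then held in the cytoplasm or degraded. Cell contact, polarity, matrix stiffness and actin tension act on this cascade, and in the urothelium, as in other epithelia, YAP and TAZ are known for roles in growth and repair. Their activity is set largely by protein modification and location, which RNA counts do not measure. CCN1 (also CYR61) and CCN2 (also CTGF) encode secreted matricellular proteins, AMOTL2 encodes an angiomotin that binds YAP and restrains it, and ANKRD1 encodes an ankyrin repeat protein best known from heart muscle.

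TEAD proteins bind the motif GGAATG, which read on the other strand is CATTCC. The windows shown are those of CCN2 and ANKRD1, the members called higher in all 4 cell lines, and of YAP1, the member called lower in all 4. Each holds the 250 bases before the start of the gene in RefSeq (GRCh38.p14), written from 5′ to 3′ on the strand of the gene, with TEAD motifs in capitals. The CCN2 window is chr6:131951373-131951622 on the minus strand, the ANKRD1 window is chr10:90921088-90921337 on the minus strand, and the YAP1 window is chr11:102110197-102110446 on the plus strand.
CCN2: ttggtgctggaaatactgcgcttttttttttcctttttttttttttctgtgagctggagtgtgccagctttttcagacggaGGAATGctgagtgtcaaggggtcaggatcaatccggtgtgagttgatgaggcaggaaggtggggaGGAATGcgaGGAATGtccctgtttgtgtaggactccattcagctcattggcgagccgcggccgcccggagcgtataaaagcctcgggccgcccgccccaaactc
ANKRD1: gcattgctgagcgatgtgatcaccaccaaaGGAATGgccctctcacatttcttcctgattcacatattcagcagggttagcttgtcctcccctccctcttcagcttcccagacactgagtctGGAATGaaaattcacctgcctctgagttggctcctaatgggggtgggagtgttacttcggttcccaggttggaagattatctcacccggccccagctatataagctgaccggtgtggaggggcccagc
YAP1: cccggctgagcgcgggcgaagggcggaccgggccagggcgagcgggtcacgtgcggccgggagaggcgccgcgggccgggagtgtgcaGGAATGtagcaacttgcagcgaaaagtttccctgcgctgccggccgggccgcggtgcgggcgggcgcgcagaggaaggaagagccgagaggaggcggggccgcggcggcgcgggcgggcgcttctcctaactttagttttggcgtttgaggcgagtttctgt
The CCN2 window held 3 matches, which began 169, 104 and 95 bases before the start. The ANKRD1 window held 2, beginning 220 and 128 bases before the start, and the YAP1 window 1, beginning 162 bases before it. Of 35116 promoter windows of the same length, 11.9% held at least 1 match on either strand, 0.94% held 2 or more and 0.0826% held 3 or more. The AP-1 motif was searched on both strands as TGANTCA, a loose form that allows any base at its center. Among these 3 it was found in the ANKRD1 window alone, as TGATTCA, against 6.57% of all windows for any central base. That match began 195 bases before the start and did not overlap a TEAD match. The CArG box, the site of serum response factor, was in none of the 3 and in 1.16% of all windows. The windows of WWTR1, TEAD2 and TEAD3 held none of the TEAD, AP-1 and CArG motifs. AMOTL2 has 2 windows, of which 1 held a single TEAD match in the other orientation, 69 bases before the start. TEAD1, TEAD4 and CCN1 had no entry, so 7 of the 10 genes were searched. A match describes these letters only and says nothing of binding in these cells.

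Total counts per library ran from 22506431 to 32537104. Levels are given in CPM, the count of a gene scaled to the library size after normalization by TMM, the trimmed-mean method of edgeR. KRT8, KRT18 and KRT19 were present in every line, and all 6 epithelial markers summed to 5392 to 6398 CPM in RT112 and 369 to 1357 CPM in TCCSUP. EPCAM was low in 253J, at 0.398 to 1.82 CPM, and in J82, at 0.874 to 2.47 CPM. KRT7 was low in 253J, at 1.62 to 5.39 CPM, and in TCCSUP, at 2.92 to 6.17 CPM. Of the urothelial markers, KRT5 and UPK2 had 0 counts in every 253J and J82 library. UPK3A had 0 counts in these libraries and in every RT112 library. PPARG was present in every line, with 158 to 201 counts in 253J and 646 to 1011 in J82. The summed urothelial level was 12.3 to 40.9 CPM in 253J and J82 against 824 to 2240 CPM in RT112. The 3 mesenchymal markers summed to 4.88 to 42.7 CPM in RT112 and 251 to 2267 CPM elsewhere. In TCCSUP that sum was mostly CDH2, at 203 to 636 CPM, with VIM at 3.75 to 14.8 CPM. Leukocyte and endothelial markers summed to 0 to 11.1 CPM. The highest sums were those of TCCSUP controls, where PTPRC was at 9.58 ± 1.35 CPM, against 1.12 ± 0.202 CPM with CM-1758. Several of these markers moved with treatment. In RT112 all 3 mesenchymal markers were called higher, from a sum of 4.88 and 6.24 CPM to 38.1 and 42.7 CPM, and 4 of 9 urothelial markers were lower and 0 higher, with the sum going from 1990 and 2240 CPM to 824 and 898 CPM. Of the 6 epithelial markers, 3 were lower and 1 higher in both 253J and TCCSUP, where the sums went from 3180 and 4332 CPM to 1851 and 2343 CPM and from 1228 and 1357 CPM to 369 and 467 CPM. In J82, 3 epithelial markers were higher and 1 lower, and the sums overlapped between groups. The part of these markers in the results was not tested. In bulk RNA a lower level in fewer cells and a lower level in every cell cannot be told apart. Scaling by library size alone in place of TMM raised the median log2 fold change of all genes by 0.31 in TCCSUP, 0.27 in 253J and 0.15 in both J82 and RT112, so changes below these sizes depend on the scaling.

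The first question was how far the lines differed before treatment. Levels are means ± SD with n = 2. All 10 genes differed in control level between the 4 lines in edgeR's quasi-likelihood test, at adjusted p from 6.20e-11 for WWTR1 to 8.29e-04 for AMOTL2, and 78.8% of all tested genes did so. In the 6 pairs of lines the share of all genes that differed in control level was 53.1% for 253J with J82, 54.3% for 253J with RT112, 53.1% for 253J with TCCSUP, 52.1% for J82 with RT112, 48% for J82 with TCCSUP and 51.5% for RT112 with TCCSUP. WWTR1 was highest in 253J at 279 ± 59.1 CPM and lowest in RT112 at 28.5 ± 1.58 CPM. Between these ends, TCCSUP at 48.1 ± 2.71 CPM and J82 at 42.6 ± 0.853 CPM did not differ beyond their spread (adjusted p = 0.382). YAP1 had another order, with 145 ± 7.28 CPM in TCCSUP and 125 ± 4.79 CPM in RT112 above 80.8 ± 4.92 CPM in J82 and 71.3 ± 2.70 CPM in 253J. The upper pair of these levels did not differ from each other (adjusted p = 0.243), nor did the lower pair (adjusted p = 0.331).

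CCN1 and CCN2, whose products belong to one protein family, were lowest in RT112. CCN2 was 5.58 ± 2.89 CPM there, against 85.2 ± 12.2 CPM in 253J, 99.5 ± 44.2 CPM in J82 and 153 ± 47.0 CPM in TCCSUP. CCN1 was 11.4 ± 3.14 CPM in RT112 and 158 ± 44.0 to 266 ± 21.1 CPM in the other lines. For both genes RT112 differed from each other line, and the other 3 lines did not differ from one another (adjusted p from 0.0633 to 0.667). ANKRD1 differed in all 6 pairs of lines and fell in order from J82 at 88.8 ± 26.0 CPM to TCCSUP at 33.3 ± 6.60 CPM, 253J at 12.8 ± 4.39 CPM and RT112 at 7.63 ± 0.617 CPM. AMOTL2 ranged from 120 ± 0.206 CPM in RT112 to 225 ± 12.7 CPM in J82. RT112 and 253J did not differ for AMOTL2 (adjusted p = 0.0935), nor did 253J and TCCSUP (adjusted p = 0.523).

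**Figure D1:**
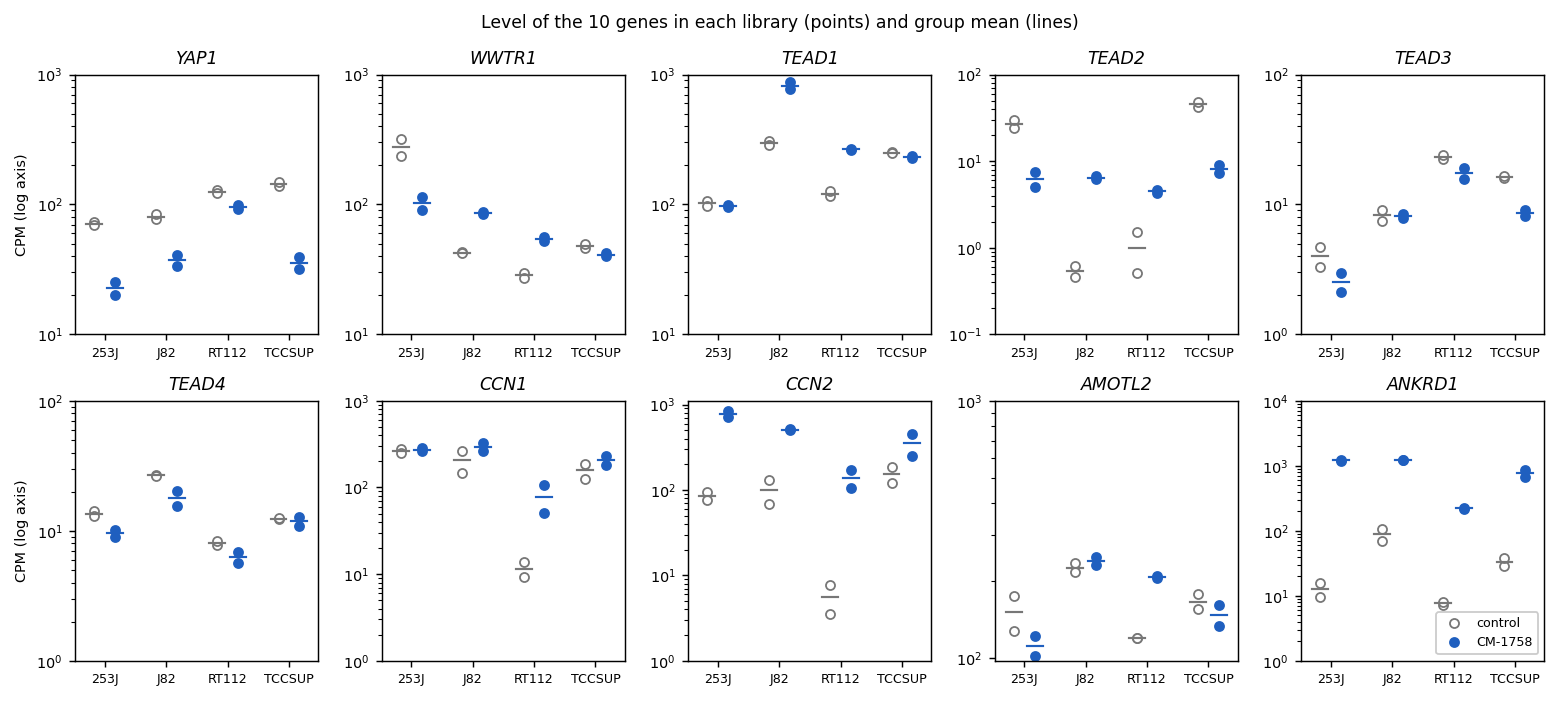
Level of each of the 10 genes in CPM on a log axis, with each library as a point, open for control and filled for CM-1758, and the mean of each group as a line. ANKRD1 and CCN2 were higher in both treated libraries than in both control libraries of every line, and YAP1 was lower in both, while TEAD2 in controls ranged from 0.456 to 48.8 CPM and in treated cells from 4.34 to 9.01 CPM.

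The second question was what CM-1758 did in each line. Over the 10 genes and 4 lines there were 40 comparisons, of which 16 were called higher, 12 lower and 12 neither by edgeR's quasi-likelihood test (adjusted p under 0.05, Benjamini-Hochberg over all 21297 genes). In 253J, 2 members were higher and 6 lower, against 28.8% higher and 22.4% lower of all genes. In J82, 5 were higher and 2 lower, against 24% and 18.5%. RT112 had 7 higher and 1 lower, against 27.4% and 20.2%, and TCCSUP 2 higher and 3 lower, against 32% and 22.1%. In either direction 51.3%, 42.5%, 47.7% and 54.1% of all genes were called in the 4 lines, in the same order, so a call alone does not set a member apart. The members had a median log2 fold change of 1.03 in RT112 and 0.77 in J82, where the median of all genes was 0.12 and 0.05, and of -0.14 in TCCSUP and -0.47 in 253J, where it was 0.20 and 0.10.

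Only ANKRD1 and CCN2 of the 10 were called higher in all 4 lines, as were 6.69% of all genes, and only YAP1 was lower in all 4, as were 6.01%. Of these 12 calls, YAP1 in RT112 and CCN2 in TCCSUP were lost when single libraries were left out. WWTR1, TEAD2 and AMOTL2 were each higher in at least 1 line and lower in another, a pattern shown by 12.9% of all genes. Under the narrower rule of a log2 fold change above 2 or below -2 with an adjusted p under 0.01, 253J had 2 members higher and 1 lower, against 9.43% and 3.5% of all genes. J82 had 3 higher and 0 lower (8.81% and 1.24% of all genes), RT112 4 higher and 0 lower (11.4% and 1.39%), and TCCSUP 1 higher and 2 lower (14.2% and 3.31%). In these counts of 0 lower members, 2 members in J82 and 1 in RT112 were lower at an adjusted p under 0.05. Control and treated libraries did not overlap for 10 members in RT112 (74.3% of all genes), 8 in 253J (73%), 8 in J82 (62.7%) and 7 in TCCSUP (78.5%).

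**Figure D2:**
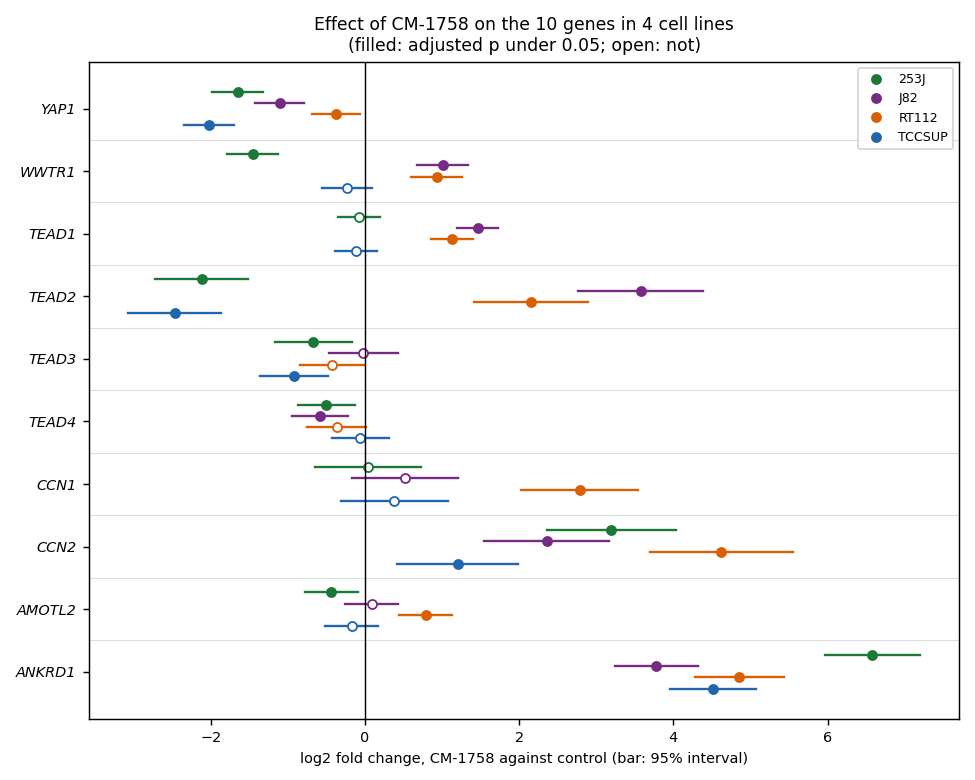
Log2 fold change of CM-1758 against control on the x axis for each of the 10 genes, with 1 point per cell line, filled where the adjusted p was under 0.05 and open elsewhere, and bars for the 95% interval. The 4 points of ANKRD1 lie between 3.78 and 6.58 and those of YAP1 between -2.02 and -0.37, whereas the points of TEAD2 lie on both sides of 0, from -2.46 in TCCSUP to 3.58 in J82.

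Among the coactivators, YAP1 fell in every line and WWTR1 did not. In 253J, YAP1 was at 73.2 and 69.4 CPM in the control libraries and 25.2 and 20.2 CPM in the treated ones. In J82 it was at 77.3 and 84.3 CPM against 41.2 and 33.9 CPM, and in TCCSUP at 140 and 150 CPM against 32.1 and 39.4 CPM. Every treated library lay below every control library in these 3 lines. The log2 fold changes were -1.65 (standard error 0.15, adjusted p = 6.04e-07) in 253J, -1.11 (0.15, 3.66e-05) in J82 and -2.02 (0.15, 9.52e-08) in TCCSUP. In RT112 the levels were 128 and 122 CPM in control and 92.7 and 99.96 CPM with CM-1758, a log2 fold change of -0.37 (standard error 0.15, adjusted p = 0.0474). That call was lost in 14 of 25 alternative settings, where the adjusted p reached 0.223, and the direction held in all of them. Leaving out any 1 of the 4 RT112 libraries lost it (log2 fold change -0.43 to -0.32, adjusted p from 0.0910 to 0.199). It was lost too without either 253J control, either TCCSUP control or J82 CM-1758 replicate 1 (adjusted p from 0.0551 to 0.0615). With all libraries in, the groups did not overlap in RT112.

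WWTR1 fell in 253J, the line in which it was most abundant. Its levels there were 321 and 237 CPM in control and 114 and 90.04 CPM with CM-1758, a log2 fold change of -1.46 (standard error 0.15, adjusted p = 2.04e-06). It rose in J82, from 43.2 and 42.0 CPM to 84.8 and 86.9 CPM, by 1.01 on the log2 scale (standard error 0.15, adjusted p = 1.04e-04). It rose in RT112 too, from 29.6 and 27.3 CPM to 52.3 and 56.3 CPM, by 0.93 (standard error 0.16, adjusted p = 1.94e-04). In TCCSUP the treated levels of 39.9 and 42.1 CPM were below the control levels of 46.2 and 50.05 CPM, but the log2 fold change of -0.23 did not pass the test (adjusted p = 0.219, 95% interval -0.56 to 0.10). The symbol TAZ in the count table denotes tafazzin and was not used for WWTR1.

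The balance of the pair differed between groups most in J82, RT112 and TCCSUP. Per kilobase of exon, WWTR1 made up 34.3% to 37.0% of the summed YAP1 and WWTR1 level in J82 control libraries and 68.3% to 72.9% in treated ones. In RT112 the share went from 19.1% to 19.5% in controls to 37.1% to 37.2% in treated libraries, and in TCCSUP from 25.7% to 25.9% to 52.8% to 56.6%. In 253J, where both genes fell, the controls lay at 78.2% and 82.1% and the treated libraries just above, at 82.5% and 82.4%. These shares are levels on the CPM per kilobase scale, with exon lengths from GENCODE 29, which may not be the annotation the reads were counted on.

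Of the TEAD genes, TEAD1 and TEAD2 rose in J82 and RT112 and did not rise in 253J or TCCSUP. TEAD1, which had the highest level per kilobase of exon of the 4 in every library except 253J control replicate 3, rose in J82 from 310 and 286 CPM to 768 and 872 CPM. In RT112 it rose from 115 and 127 CPM to 267 and 264 CPM. The log2 fold changes were 1.46 (standard error 0.13, adjusted p = 6.36e-07) in J82 and 1.13 (0.13, 5.36e-06) in RT112, with no overlap between groups. In 253J the control levels of 107 and 98.0 CPM overlapped the treated levels of 99.0 and 95.5 CPM, and in TCCSUP levels of 255 and 248 CPM stood beside 235 and 229 CPM. The log2 fold changes in these lines were -0.08 (95% interval -0.35 to 0.19, adjusted p = 0.657) and -0.12 (-0.38 to 0.15, adjusted p = 0.456), and both turned positive when libraries were scaled by size alone and when genes under 10 counts in any library were left out.

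TEAD2 rose in J82 and RT112 and fell in 253J and TCCSUP. It was near absent in J82 controls, with 12 and 17 counts or 0.456 and 0.618 CPM, and reached 6.27 and 6.67 CPM with CM-1758. In RT112 controls it had 46 and 15 counts, at 1.504 and 0.508 CPM, and reached 4.34 and 4.69 CPM. In 253J it dropped from 24.3 and 29.6 CPM to 7.45 and 4.99 CPM, and in TCCSUP from 41.7 and 48.8 CPM to 7.37 and 9.01 CPM. In none of the lines did treated and control libraries overlap. The log2 fold changes were 3.58 (standard error 0.38, adjusted p = 3.79e-06) in J82, 2.15 (0.35, 1.35e-04) in RT112, -2.12 (0.28, 1.82e-05) in 253J and -2.46 (0.28, 4.67e-06) in TCCSUP. In controls the highest and lowest library differed more than in treated cells, whose 8 libraries lay between 4.34 and 9.01 CPM. The RT112 value rested on unequal controls, being 3.14 without control replicate 1 and 1.58 without control replicate 2, and the call held in both.

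The called changes of TEAD3 and TEAD4 were all lower, in TCCSUP and 253J for TEAD3 and in J82 and 253J for TEAD4. TEAD3 fell in TCCSUP from 15.9 and 16.6 CPM to 8.12 and 9.05 CPM, a log2 fold change of -0.92 (standard error 0.21, adjusted p = 0.00166), and the call held in all 25 alternatives. In 253J it was at 3.33 and 4.75 CPM in control and 2.97 and 2.13 CPM with CM-1758, a log2 fold change of -0.67 (standard error 0.23, adjusted p = 0.0259) that lost the call in 5 alternatives, among them without control replicate 3 (-0.40, adjusted p = 0.261) and without CM-1758 replicate 3 (-0.44, adjusted p = 0.223). TEAD4 in J82 was at 26.9 and 26.6 CPM in control and 15.6 and 20.2 CPM with CM-1758, with a log2 fold change of -0.58 (standard error 0.17, adjusted p = 0.0116). In 253J its levels were 14.1 and 12.99 CPM against 10.2 and 8.94 CPM, with -0.50 (0.17, 0.0253). The J82 call was lost without CM-1758 replicate 1 (-0.33, adjusted p = 0.217) and with each line fitted alone in edgeR (adjusted p = 0.0753) or DESeq2 (adjusted p = 0.112). The 253J call was lost without control replicate 2 (-0.44), without CM-1758 replicate 3 (-0.41) and by library size alone (-0.23, adjusted p = 0.279). It was lost too with each line alone in DESeq2 (adjusted p = 0.0778). With the replicate block, which leaves 253J its replicate 3 pair alone, the call was also lost (-0.54). In RT112 neither gene passed, with -0.42 for TEAD3 (adjusted p = 0.0966) and -0.37 for TEAD4 (adjusted p = 0.107), though the libraries did not overlap, and TEAD3 passed there with each line fitted alone in edgeR (adjusted p = 0.0387). TEAD3 in J82 (-0.02, 95% interval -0.47 to 0.43) and TEAD4 in TCCSUP (-0.06, -0.43 to 0.31) overlapped between groups, and each turned positive in some alternatives.

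Per kilobase of exon, TEAD1 took a larger share of the summed TEAD level in every treated library than in any control library of its line. The share was 34.8% to 39.2% in 253J controls and 53.2% to 57.8% in treated libraries, and 63.9% to 64.9% against 85.3% to 85.8% in J82. It was 50.4% to 51.7% against 71.0% to 74.0% in RT112 and 46.7% to 49.9% against 64.7% to 68.8% in TCCSUP. The sum moved in opposite directions. It went from 48.2 and 51.5 to 96.6 and 110 CPM per kilobase in J82 and from 24.7 and 26.4 to 40.5 and 38.5 in RT112, while in 253J it went from 29.5 and 30.4 to 20.1 and 17.8 and in TCCSUP from 55.02 and 57.2 to 36.8 and 38.1. In J82 and RT112 the larger share came with more TEAD1, and in 253J and TCCSUP with less TEAD2.

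**Figure D3:**
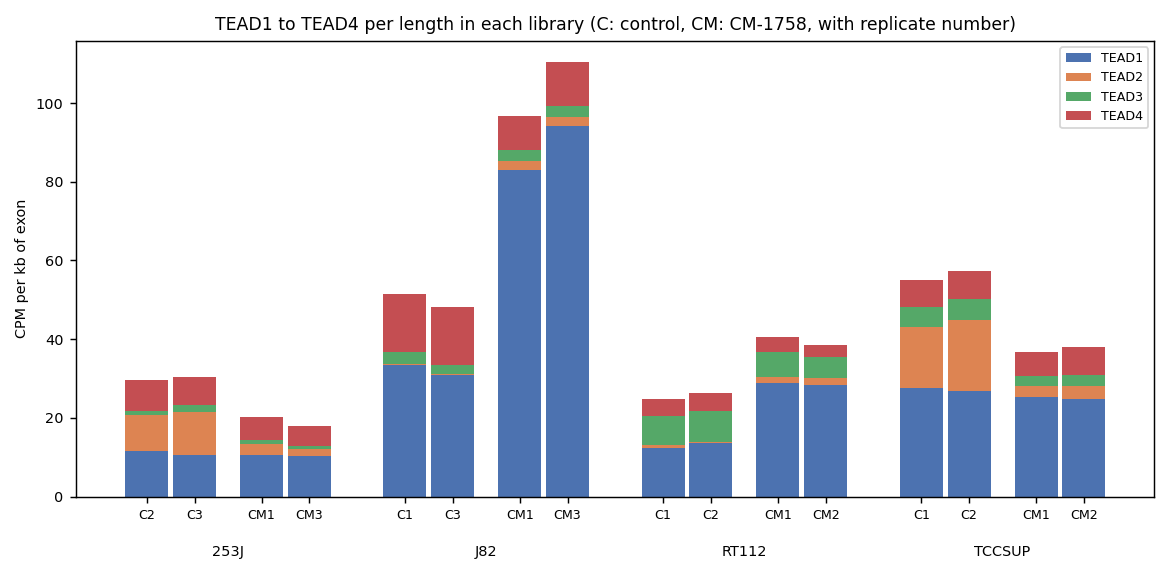
Summed level of TEAD1 to TEAD4 in CPM per kilobase of exon in each of the 16 libraries, stacked by gene, with controls marked C and treated libraries CM, each with its replicate number. The TEAD1 part grew in J82 and RT112, where the sums rose to 96.6 and 110 and to 40.5 and 38.5, and the TEAD2 part shrank in 253J and TCCSUP, where the sums were lower with CM-1758.

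The 4 target genes did not move as a group. ANKRD1 had the largest fitted log2 fold change of the 10 genes in every line, with TEAD2 close behind in J82 and CCN2 in RT112. It was at 15.9 and 9.69 CPM in 253J controls and 1205 and 1244 CPM in treated cells, a log2 fold change of 6.58 (standard error 0.29, adjusted p = 1.93e-09). In J82 it went from 107 and 70.5 CPM to 1218 and 1222 CPM, by 3.78 (0.25, 6.12e-08). In RT112 it went from 7.19 and 8.07 CPM to 228 and 214 CPM, by 4.86 (0.27, 9.68e-09), and in TCCSUP from 28.7 and 38.0 CPM to 674 and 854 CPM, by 4.52 (0.26, 8.73e-09). Each treated library was far above each control library, and all 4 calls held in the 25 alternatives, with log2 fold changes never under 3.51. As ratios of the means, treated levels were 13.7 times the control level in J82, 22.9 times in TCCSUP, 28.95 times in RT112 and 95.7 times in 253J. Ranked by fitted log2 fold change from the top of all 21297 tested genes, ANKRD1 was number 724 in 253J, 1684 in RT112, 1836 in J82 and 2515 in TCCSUP. Rises of this size were thus shared by many other genes. The treated levels of 253J and J82, 1225 ± 27.1 and 1220 ± 2.99 CPM, lay close together although their controls differed.

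CCN2 rose in all 4 lines. The fitted rise was larger in RT112, where the control level was lowest, than in J82 (adjusted p of the difference 0.00702) and TCCSUP (2.60e-04), and the difference from 253J did not pass (1.43, 95% interval 0.28 to 2.57, adjusted p = 0.0573). It went from 3.53 and 7.62 CPM to 105 and 169 CPM in RT112, a log2 fold change of 4.62 (standard error 0.44, adjusted p = 1.09e-06). In 253J it went from 93.9 and 76.6 CPM to 721 and 841 CPM, by 3.20 (0.39, 8.39e-06), and in J82 from 131 and 68.2 CPM to 508 and 512 CPM, by 2.36 (0.38, 1.69e-04). In TCCSUP the controls were at 119 and 186 CPM and the treated libraries at 455 and 249 CPM, which did not overlap. The log2 fold change there was 1.204 (standard error 0.37, adjusted p = 0.0123), and it was 0.92 (adjusted p = 0.121) without control replicate 1 and 0.70 (adjusted p = 0.188) without CM-1758 replicate 1. The call in TCCSUP depended on those libraries, and the rises in 253J, J82 and RT112 held in all 25 alternatives. The RT112 value was 5.28 without control replicate 2.

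CCN1, the paralog of CCN2, passed the test in RT112 alone, and the effect there differed from those in 253J, J82 and TCCSUP (adjusted p = 4.84e-04, 0.00294 and 0.00140). In RT112 it went from 9.19 and 13.6 CPM to 50.4 and 107 CPM, a log2 fold change of 2.79 (standard error 0.35, adjusted p = 1.76e-05), with treated libraries that differed from each other. Without CM-1758 replicate 2 the value was 2.14, and the call held. In J82 the controls were at 265 and 147 CPM and the treated libraries at 326 and 266 CPM, a log2 fold change of 0.52 (95% interval -0.17 to 1.21, adjusted p = 0.214). Without J82 control replicate 1 that value was 1.01 (adjusted p = 0.0383). In 253J the libraries overlapped, at 281 and 251 CPM against 262 and 283 CPM, with a log2 fold change of 0.04 (95% interval -0.65 to 0.72). In TCCSUP they overlapped at 126 and 189 CPM against 231 and 180 CPM, with 0.38 (95% interval -0.31 to 1.07). The ratio of CCN2 to CCN1 counts was 0.305 to 0.985 in the 8 control libraries and 1.39 to 2.97 in the 8 treated ones, without overlap.

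Within 7 of the 8 groups the library with more CCN1 was also the one with more CCN2, the exception being treated J82 cells. The J82 control replicate 1 had the higher level of both, as did the RT112 CM-1758 replicate 2 and the TCCSUP CM-1758 replicate 1. The spread of CCN1 and CCN2 between replicates was wide, with standard errors of 0.32 to 0.44 on the log2 scale, against 0.12 to 0.16 for YAP1, WWTR1, TEAD1 and AMOTL2.

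AMOTL2, an angiomotin that is both a target and a brake of YAP, rose in RT112 and fell in 253J. It rose in RT112 from 120.1 and 119.8 CPM to 205 and 209 CPM, a log2 fold change of 0.79 (standard error 0.16, adjusted p = 0.00105) that held in all 25 alternatives. In 253J it was at 175 and 127 CPM in control and 122 and 102 CPM with CM-1758, with -0.43 (standard error 0.16, adjusted p = 0.0351), a call that was lost in 7 alternatives, among them without control replicate 2 (-0.19, adjusted p = 0.443) and without CM-1758 replicate 3 (-0.32, adjusted p = 0.234). In J82 the levels of 234 and 216 CPM overlapped the treated levels of 248 and 230.3 CPM, with a log2 fold change of 0.09 (95% interval -0.26 to 0.43). In TCCSUP 155 and 177 CPM overlapped 162 and 133 CPM, with -0.17 (95% interval -0.52 to 0.17), a sign that turned when libraries were scaled by size alone.

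The third question was whether the response itself differed between lines. An F test of the interaction of treatment and line passed at an adjusted p under 0.05 for 8 of the 10 members, and for 51.9% of all genes. The values were lowest for TEAD2 (adjusted p = 1.57e-07), WWTR1 (1.05e-06) and TEAD1 (4.38e-06), the genes that rose in J82 and RT112 and did not in 253J and TCCSUP. ANKRD1 (4.81e-05), YAP1 (7.45e-05), CCN2 (7.07e-04), CCN1 (8.08e-04) and AMOTL2 (0.00228) also passed. TEAD3 (0.0817) and TEAD4 (0.266) did not, and TEAD3 passed under DESeq2 in 1 model for all lines (0.0417) and without 253J control replicate 2 (0.0478).

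Between pairs of lines, the effect on ANKRD1 was smaller than in 253J by a log2 difference of -2.80 in J82, -2.06 in TCCSUP and -1.72 in RT112 (adjusted p = 1.86e-05, 2.61e-04 and 0.00121). A difference between J82 and RT112 did not pass for TEAD1 (-0.33, 95% interval -0.70 to 0.05, adjusted p = 0.218), WWTR1 (-0.08, -0.54 to 0.39, adjusted p = 0.936) or TEAD2 (-1.42, -2.56 to -0.28, adjusted p = 0.0717), each given as RT112 minus J82. A difference between 253J and TCCSUP did not pass for TEAD1 (-0.04, 95% interval -0.42 to 0.34), TEAD2 (-0.35, -1.17 to 0.48) or YAP1 (-0.37, -0.82 to 0.08), given as TCCSUP minus 253J, but it did for WWTR1 (1.22, standard error 0.22, adjusted p = 6.15e-04). The effect on YAP1 in RT112 was smaller than in each other line, by 1.28 against 253J, 0.73 against J82 and, as TCCSUP minus RT112, -1.65 (adjusted p from 3.72e-05 to 0.0203). The share of all genes whose effect differed was 30% for 253J with J82 and with RT112, 28.6% for 253J with TCCSUP, 22.2% for J82 with RT112 and with TCCSUP, and 27.5% for RT112 with TCCSUP.

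The other genes of the pathway were described from lists of 56 genes in all, 55 of them tested, some in 2 lists. Over these, RT112 had 19 genes higher and 13 lower, J82 17 and 13, 253J 11 and 21, and TCCSUP 10 and 26. As shares of the 55 these were 34.5% and 23.6% in RT112 (27.4% and 20.2% of all genes), 30.9% and 23.6% in J82 (24% and 18.5%), 20% and 38.2% in 253J (28.8% and 22.4%), and 18.2% and 47.3% in TCCSUP (32% and 22.1%). The 15 kinases and adaptors of the Hippo core, which lead to phosphorylation of YAP and TAZ, had 9 higher and 1 lower in RT112, 9 and 3 in J82, 6 and 3 in 253J, and 4 and 6 in TCCSUP. As shares, the higher genes were 60% in RT112 and J82, 40% in 253J and 26.7% in TCCSUP, where 27.4%, 24%, 28.8% and 32% of all genes were higher. The lower genes were 6.67% in RT112, and 20% in J82 and 253J, near or below the 20.2%, 18.5% and 22.4% of all genes, and 40% in TCCSUP (22.1% of all genes). Their median log2 fold change was 0.64, 0.44, 0.12 and 0.14 in that order, and that of all genes 0.12, 0.05, 0.10 and 0.20. STK4, the kinase MST1, rose in all 4 lines, by 1.45 in 253J, 1.18 in TCCSUP, 0.77 in RT112 and 0.44 in J82 (standard error 0.12 in each), at adjusted p from 2.45e-07 to 0.00705 in edgeR. The J82 call was lost without J82 CM-1758 replicate 3 (0.37, adjusted p = 0.0565) and with each line fitted alone in edgeR (adjusted p = 0.190) or DESeq2 (adjusted p = 0.0963). TAOK3, a kinase upstream of STK3 and STK4, rose by 1.89 in 253J, and WWC1, the scaffold KIBRA, by 1.38 in RT112. MAP4K4, a kinase that also acts on LATS, fell by 1.05 in 253J and by 1.10 in J82. MOB1A, the LATS cofactor, fell by 0.76 in RT112 and by 1.60 in TCCSUP. NF2, which encodes merlin, fell by 0.97 in TCCSUP, from 173 and 167 CPM to 88.1 and 86.0 CPM (adjusted p = 1.50e-04 in edgeR), and rose by 0.43 in RT112 (adjusted p = 0.0336). In J82 it had 0 counts in both control libraries and 4 and 5 in the treated ones. It was thus at least 1.401-fold higher there, a bound taken against 3 counts per library. NF2 was near absent in J82 in both groups, with a treated mean of 0.156 CPM. Control means in 253J, RT112 and TCCSUP were 196, 104 and 170 CPM. The J82 change is among the 9 higher core genes of that line. With J82 fitted alone that call was lost (adjusted p = 0.149 in edgeR and 0.307 in DESeq2).

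The 15 regulators at junctions and in polarity complexes had 5 higher and 3 lower in J82, 3 and 6 in 253J, and 3 and 8 in RT112 and in TCCSUP, with medians of 0.07, -0.23, -0.41 and -0.85, where all genes had 0.05, 0.10, 0.12 and 0.20. The lower genes were 53.3% in RT112 (20.2% of all genes) and in TCCSUP (22.1%), 40% in 253J (22.4%) and 20% in J82 (18.5%). The higher genes were 33.3% in J82 (24% of all genes) and 20% in the other lines (27.4% to 32%). AJUBA, a LIM protein that inhibits LATS kinases, fell in all 4 lines, by 1.90 in TCCSUP, 1.45 in J82, 1.08 in RT112 and 1.06 in 253J (standard errors 0.22 each, adjusted p from 5.32e-06 to 8.29e-04). AMOT, the angiomotin that gives the family its name, was called higher in all 4. Its counts were 323 and 312 against 560 and 799 in 253J, 249 and 253 against 819 and 759 in J82, and 88 and 159 against 358 and 374 in TCCSUP, with log2 fold changes of 1.06, 1.56 and 1.55. In RT112 it had 0 counts in both controls and 128 and 170 in treated libraries, at least 57.5-fold higher. CRB3, a Crumbs polarity protein, was called higher in all 4 lines from low counts outside RT112, with 518 and 498 against 913 and 849 counts in RT112 and 0 and 0 against 18 and 14 in TCCSUP, at least 5.24-fold higher. Its counts in 253J were 10 and 6 against 30 and 19, and in J82 6 and 0 against 26 and 21, where the 6 are those of control replicate 1. The CRB3 call was lost in RT112 without any 1 of its 4 libraries (adjusted p from 0.0594 to 0.0991) and in 253J without control replicate 3 or CM-1758 replicate 1 (adjusted p = 0.133 and 0.184). With J82 fitted alone the CRB3 call there was lost in edgeR (adjusted p = 0.0621) and DESeq2 (adjusted p = 0.112). In 253J it was lost too with that line alone in DESeq2 (adjusted p = 0.150) and with the replicate block (1.46). FAT1, a giant protocadherin, fell by 1.32 in 253J and rose by 3.57 in TCCSUP, from 11.3 and 9.50 CPM to 134 and 113 CPM, and by 0.75 in J82. AMOTL1, a further angiomotin, fell by 1.74 in RT112 and by 0.94 in 253J and rose by 0.59 in J82.

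**Figure D4:**
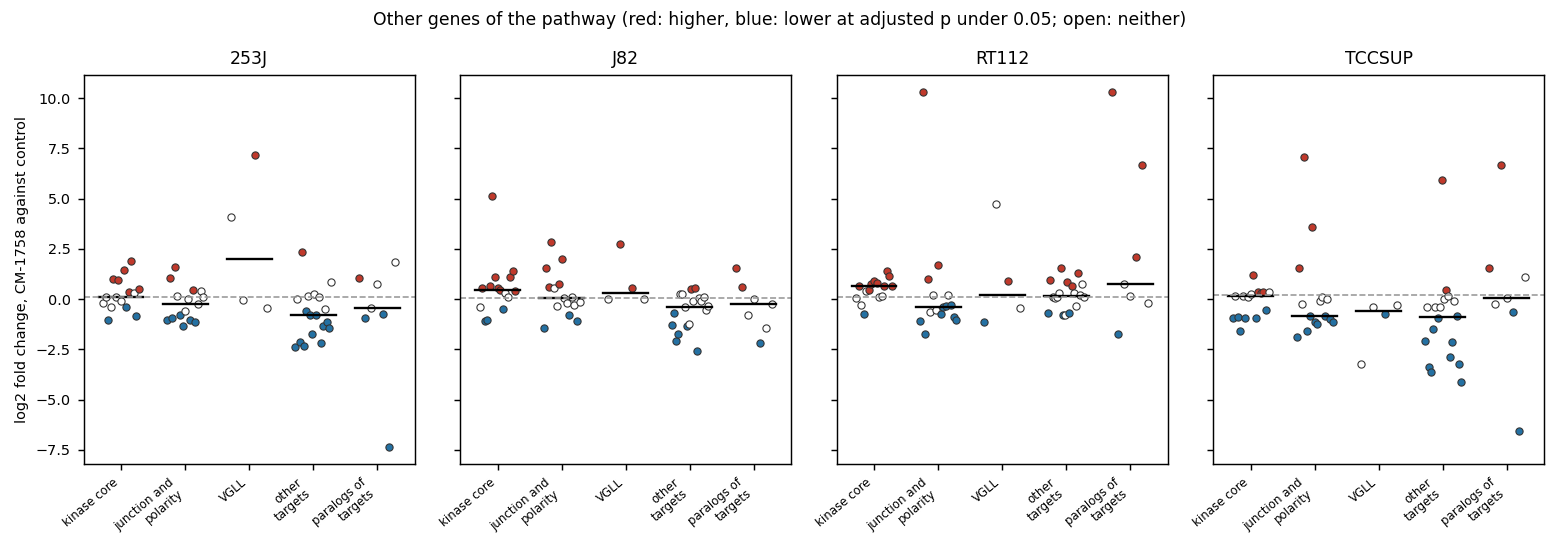
Log2 fold change of CM-1758 against control for each tested gene of 5 lists in the 4 lines, as fitted by edgeR, with red for higher, blue for lower and open for neither, a bar at the median of each list and a dashed line at the median of all genes. The other targets lay mostly below the dashed line in 253J and TCCSUP, with medians of -0.81 and -0.90. Points beyond 5 or under -5 are genes with few or 0 counts in a group. Where that group had 3 counts or fewer in each library, the fitted value is not a measured fold.

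The VGLL genes encode TEAD cofactors, of which VGLL4 is known to compete with YAP for TEAD proteins. Of the 4, 1 was higher in 253J, 2 in J82 and 1 in RT112, and 1 was lower in RT112 and 1 in TCCSUP. With 4 genes, 1 of them is 25%, close to the 18.5% to 32% of all genes called in a direction. As fitted, their median log2 fold change was 0.28 in J82, 0.21 in RT112, -0.58 in TCCSUP and 2.01 in 253J. With genes at 0 counts set to their bounds, or left out where both groups were at the floor, the same medians were 0.56, -0.14, -0.40 and -0.25, so in 253J and RT112 the sign turned. In 253J this entered VGLL1 at 0.604-fold, although it had 0 counts in controls and 0 to 4 in treated libraries. The 253J median thus depends in part on that construction. VGLL3 had 2 and 0 counts in 253J controls and 144 and 181 with CM-1758, a ratio of 159 with a 95% counting interval of 43.7 to 1319. The same gene had 2582 to 8001 counts in J82 and RT112 libraries, where it rose by 0.56 and 0.89 on the log2 scale, and it fell by 0.75 in TCCSUP. Its J82 call was lost with that line fitted alone in edgeR (adjusted p = 0.101). VGLL1, a cofactor expressed in epithelial cells, fell by 1.13 in RT112, from 734 and 663 counts to 245 and 305, a call lost without any 1 of the RT112 libraries (adjusted p from 0.0640 to 0.127). VGLL2 in J82 had 7 and 3 counts in control and 14 and 59 in treated libraries, and its call was lost without CM-1758 replicate 3 (adjusted p = 0.259) or control replicate 3 (adjusted p = 0.0962).

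Of 18 further YAP and TAZ target genes, more were lower than higher in 253J, TCCSUP and J82, unlike ANKRD1 and CCN2. The counts were 1 higher and 11 lower in 253J, 2 and 10 in TCCSUP, 2 and 6 in J82, and 5 and 3 in RT112. The lower genes were 61.1% in 253J (22.4% of all genes), 55.6% in TCCSUP (22.1%) and 33.3% in J82 (18.5%). In RT112 the shares of 27.8% higher and 16.7% lower were near those of all genes, 27.4% and 20.2%. The medians were -0.81, -0.90, -0.37 and 0.17, against 0.10, 0.20, 0.05 and 0.12 over all genes. ARHGEF17 fell in all 4 lines, by 2.40 in 253J, 2.09 in TCCSUP, 1.28 in J82 and 0.71 in RT112, and the RT112 call was lost without any 1 of its libraries (adjusted p from 0.0575 to 0.107). MYOF, a membrane repair protein, fell by 2.60 in J82, from 7644 and 5897 counts to 1557 and 813. TGFB2, a TGF-beta ligand, fell by 4.15 in TCCSUP, from 16597 and 14494 counts to 856 and 921. CCDC80, a secreted matrix protein, rose by 2.36 in 253J and fell by 3.63 in TCCSUP and by 1.74 in J82. F3, the coagulation initiator tissue factor, rose by 1.53 in RT112 and fell by 0.96 in TCCSUP. LATS2 rose by 0.65 in RT112 and by 0.53 in J82, where the call was lost without control replicate 3 (0.44) or CM-1758 replicate 3 (0.39). The J82 call was lost too with that line fitted alone in edgeR (adjusted p = 0.0969) or DESeq2 (adjusted p = 0.0788). FJX1, the human relative of fly four-jointed, had the lowest called value in RT112, where it fell by 0.80. FOXF2, a forkhead factor, was called higher in TCCSUP on 14 counts in a single treated library, with 0 in the other 3 libraries, and without that library there was no change to measure. Without either control the call was lost as well (adjusted p = 0.0699 and 0.0738).

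Paralogs of the targets moved in both directions. Of 8 listed, 7 were tested, and 3 were higher and 1 lower in RT112, 2 and 1 in J82, 2 and 2 in TCCSUP, and 1 and 3 in 253J, with medians of 0.75, -0.24, 0.04 and -0.44, where all genes had 0.12, 0.05, 0.20 and 0.10. Of 7 genes, 1 is 14.3%, 2 are 28.6% and 3 are 42.9%, against 24% to 32% of all genes higher and 18.5% to 22.4% lower. CCN4 and CCN3, members of the CCN family like CCN1 and CCN2, rose in RT112 as CCN2 did and were lower in other lines. CCN4 had 849 and 775 counts in 253J controls and 5 and 5 in treated libraries, a log2 fold change of -7.34 (standard error 0.47, adjusted p = 9.18e-08). In TCCSUP it had 9 and 13 counts in control and 0 in both treated libraries, at least 3.71-fold lower. In RT112 it had 0 counts in both controls and 14 and 10 with CM-1758, at least 4.65-fold higher. CCN3 fell by 2.19 in J82, from 2621 and 2312 counts to 633 and 523, by 0.74 in 253J and by 0.64 in TCCSUP. It rose by 2.08 in RT112, from 41 and 45 counts to 166 and 149 (adjusted p = 9.22e-05 in edgeR). ANKRD2, the paralog of ANKRD1 known from skeletal muscle, had 0 counts in TCCSUP controls and 9 and 15 with CM-1758, at least 3.97-fold higher.

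Likeness of pattern was taken as Pearson's r of log2 CPM over the 16 libraries, which share lines and treatment, and is given as a description. The genes most like YAP1 were IQGAP3 (r = 0.966), KIF11 (0.966) and CDK1 (0.957). For ANKRD1 they were LOC101927476 (0.969), SMIM10L2B (0.966) and PLCL1 (0.965), and for CCN2 PIK3CD (0.958), MAPRE2 (0.946) and EID3 (0.945). For CCN1 they were MAP3K12 (0.961), GULP1 (0.958) and MPP1 (0.956).

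Some members share bases with other genes, and whether the counting used strand is not given in the sources used here. In GENCODE 29, WWTR1 exons overlap WWTR1-AS1 on the opposite strand, which had 10 to 46 counts against at least 807 for WWTR1. AMOTL2 exons overlap the pseudogene RPL39P5, with 1 to 30 counts, and TEAD2 exons overlap CD37, with 0 counts in every library. YAP1 exons overlap AP000942.2 and CCN2 exons overlap AL133346.1, both on the opposite strand. Neither of these was among the counted genes, so no counts of them can be set beside those of YAP1 and CCN2.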

How the data were processed

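The 16 libraries were made from ribosome-depleted total RNA of 4 BC cell lines. Raw counts are what the authors deposited, as whole numbers of reads per gene symbol without normalization. HISAT2, StringTie and GRCh37 are in the submitters' processing notes, with no version or role given. Columns were matched to samples by their labels.

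Genes were filtered with filterByExpr over 8 groups, scaled with TMM and tested by quasi-likelihood in edgeR 4.0.16 under R 4.3.3, with all 16 libraries in 1 model with 1 mean per group. P-values were two-sided and adjusted by Benjamini-Hochberg within each contrast, and calls were made at 0.05. Standard errors are the log2 fold change over the square root of F. Differences between lines were F tests of 3 contrasts. The floor was 3 counts, and intervals on counts cover counting error only. The fit was run on simulated data in which few genes changed, in J82 alone, so this did not test it under changes as widespread as these. Exon lengths came from GENCODE 29 and promoters from RefSeq.

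The members and lists were chosen with earlier results of these data known. Named beside the members were list genes called in 1 direction in all 4 lines, the extreme called genes of each list and line, and the 3 genes most like YAP1, CCN1, CCN2 and ANKRD1. Alternatives were RLE, library size alone, 7 small noncoding RNA genes left out, DESeq2 1.42.0, each line alone, other filters, the narrower call rule, the replicate block and leaving out each library.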

Additional observations from a re-analysis of the deposited data

Results flagged for a closer look

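The response to CM-1758 differed between the 4 cell lines for 8 of the 10 genes by the test of the interaction in edgeR, at an adjusted p of 1.57e-07 for TEAD2, 1.05e-06 for WWTR1, 4.38e-06 for TEAD1, 4.81e-05 for ANKRD1, 7.45e-05 for YAP1, 7.07e-04 for CCN2, 8.08e-04 for CCN1 and 0.00228 for AMOTL2. TEAD2 and WWTR1 are the members with called changes in opposite directions, higher in J82 and RT112 and lower in 253J, with TEAD2 lower in TCCSUP as well, while AMOTL2 was higher in RT112 and lower in 253J. For YAP1, CCN2 and ANKRD1 the difference was one of size, and for TEAD1 and CCN1 the change was called in some lines and not in others. The dose differed between lines, so line and dose cannot be told apart. As 51.9% of all tested genes passed the same test, passing it is common in these data.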

How the results depend on the processing

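With 2 libraries per group, the spread of each gene was estimated over all 8 groups and moderated towards that of genes of similar level, so a group left with 1 library is assumed to vary like the others. In all 25 alternatives the calls held for ANKRD1 and TEAD2 in all 4 lines, YAP1 in 253J, J82 and TCCSUP, WWTR1 in 253J, J82 and RT112, CCN2 in 253J, J82 and RT112, TEAD1 in J82 and RT112, CCN1 and AMOTL2 in RT112 and TEAD3 in TCCSUP. TEAD2 in J82 and RT112 controls had counts of 12 to 46, which limits its precision there.

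The count of members lower in RT112, 1 (YAP1), was 0 under RLE, library size alone, DESeq2 in 1 model, no filter and the filter of 10 counts in every library, and 2 with each line fitted alone in edgeR. Members lower in J82, 2, were 1 with each line alone in edgeR or in DESeq2, and members lower in 253J, 6, were 3 by library size alone. Pathway genes higher by library size alone were 18 in 253J and 16 in TCCSUP, and all genes lower in TCCSUP were 3137. That scaling raised the median log2 fold change of all genes by 0.27 in 253J and 0.31 in TCCSUP. These pathway counts were therefore not read as particular to the pathway. With each line alone, pathway genes higher in J82 were 7 in edgeR and 10 in DESeq2. All genes lower in J82 were then 2526 and 2480, and all genes higher in J82 were 3333 in DESeq2. Requiring 10 counts in every library tested fewer genes and left 3897 genes higher in 253J, 3729 in TCCSUP, 3324 in RT112 and 3209 in J82. It left 8 pathway genes lower in RT112. Being of a smaller set of genes, these counts cannot be set beside the main ones.

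Under the narrower rule, members higher were 4 in RT112, 3 in J82 and 1 in TCCSUP, and members lower 1 in 253J and 0 in J82 and RT112. Pathway genes higher and lower were then 3 and 8 in TCCSUP, 3 and 0 in RT112, 2 and 5 in 253J, and 2 and 3 in J82. All genes higher and lower were 3028 and 704 in TCCSUP, 2429 and 295 in RT112, 2009 and 746 in 253J, and 1876 and 265 in J82.

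Signs that reversed were of values that had not passed, except FOXF2. By library size alone TEAD1 was 0.19 in 253J and 0.20 in TCCSUP, TEAD3 0.12 in J82, and in TCCSUP TEAD4 was 0.25, WWTR1 0.0800 and AMOTL2 0.14. With 10 counts in every library TEAD1 was 0.00353 in 253J and 0.0356 in TCCSUP, TEAD3 0.0913 in J82 and TEAD4 0.0930 in TCCSUP. TEAD3 in J82 was 0.0689 under RLE and 0.0690 in DESeq2. Leaving out 1 library gave -0.0469 to 0.12 for CCN1 in 253J, -0.16 to 0.14 for TEAD3 in J82, -0.18 to 0.0473 for TEAD4 in TCCSUP, and 0 (without CM-1758 replicate 2, which held all its counts) to 6.91 for FOXF2 in TCCSUP. Except where the construction shows it, the cause was not tested.

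With each library left out in turn, members lower were 0 to 1 in RT112 (0 without the 9 libraries named beside YAP1), 3 to 6 in 253J (3 without its CM-1758 replicate 3) and 1 to 2 in J82 (1 without its CM-1758 replicate 1), and members higher in TCCSUP were 1 to 2 (1 without its control replicate 1 or CM-1758 replicate 1). Pathway-list genes higher were 11 to 18 in J82 (11 without its CM-1758 replicate 3) and 6 to 11 in TCCSUP (6 without either control or CM-1758 replicate 1), and those lower in RT112 were 7 to 15 (7 without control replicate 1 or either CM-1758 library). Deviations of same-numbered libraries correlated at 0.218 in J82, 0.0529 in 253J, 0.0427 in RT112 and 0.0173 in TCCSUP. With 2 libraries per group each line gives 1 such value, which does not settle whether the replicate numbers pair the libraries. In 253J the controls are numbered 2 and 3 and the treated libraries 1 and 3. The replicate block therefore leaves the 253J effect to the replicate 3 pair alone. With the replicate block, members higher and lower were 7 and 1 in RT112, 5 and 2 in J82, 2 and 4 in 253J and 2 and 3 in TCCSUP, and the interaction passed for 9 members, TEAD3 (adjusted p = 0.0247) being added.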
